A study of Mus musculus with 912 samples.

Results

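The 28 genes described here encode subunits of the receptors for glutamate and 4 of their auxiliary proteins. They were listed by name, and all 28 were found among the 42802 genes of the count tables. They were the AMPA receptor subunits Gria1 to Gria4, the kainate receptor subunits Grik1 to Grik5, the NMDA receptor subunits Grin1, Grin2a to Grin2d, Grin3a and Grin3b, the delta subunit Grid1, the metabotropic receptors Grm2 to Grm8, and the auxiliary proteins Neto1, Neto2, Cnih2 and Cnih3. Levels were measured in single nuclei of the hippocampus of wild-type female C57BL6 mice aged 7.75 to 9 weeks, with 1 SmartSeq2 library of polyadenylated RNA per nucleus. Of 912 libraries, 783 from 29 mice passed the filters on reads, genes and Arc.

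The first cohort (303 nuclei, 11 mice) held home cage mice (HC) and mice killed 1 h after 15 min in an environment new to them (1hr). Nuclei were sorted on NEUN, PROX1, CTIP2 and FOS, and the authors predicted each as dentate gyrus (DG), CA1, CA3, subiculum (Sub), VIP, Ivy or Pvalb interneuron, or thalamus (Th). FOS is the product of an immediate early gene and marks recently active neurons, and all HC nuclei were FOS-. The later cohort (480 nuclei, 18 mice) held PROX1+CTIP2+ DG nuclei that were all ARC+. In the 4hr and 5hr groups the nuclei were FOS- and the mice were killed 4 or 5 h after 1 exposure. The A>A and A>C mice entered environment A, went back to the home cage for 4 h, entered A again or the different environment C, and were killed 1 h later, with FOS+ and FOS- nuclei taken.

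AMPA, kainate and NMDA receptors are ion channels built of several subunits, and the subunits present set their kinetics and calcium permeability. The NMDA receptor needs the obligatory subunit encoded by Grin1 beside Grin2 or Grin3 subunits. The metabotropic receptors act through G proteins. Grm5 couples to release of calcium from stores, and the other receptors listed here couple to inhibition of adenylate cyclase. Neto proteins associate with kainate receptors and cornichons (Cnih2, Cnih3) with AMPA receptors. Glutamate carries the signal from DG through CA3 to CA1 and the subiculum, and also drives the interneurons.

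Each level below is a mean of log2(TPM+1) over the nuclei of a mouse, where TPM is an abundance of transcripts corrected for their length and for the depth of the library. Mean ± SD is over mice with at least 2 nuclei in the group, and detection is over all nuclei of the group. A gene was detected in a nucleus with at least 1 count, and detection is also given after each nucleus was thinned to 100000 counts. Total counts per nucleus ran from 142275 to 5885216, with a median of 1042313 in the first and 1655208 in the later cohort. The cohorts differed in depth, stain and plate as well as in time after exposure, and these cannot be told apart. Over the first-cohort nuclei of each predicted type, FOS+ and FOS- together, the DG marker Prox1 had a mean level of 5.56 in DG, 4.16 in VIP, 3.13 in Th and 0.04 in CA1, Wfs1 of 3.61 in CA1, Vip of 8.97 in VIP and Pvalb of 6.36 in Pvalb nuclei. In CA3 nuclei Iyd was at 2.13 and the CA3 marker Coch at 0.16, and Sub nuclei held the subiculum markers Slc17a6 at 2.04 and Nts at 1.41, while Slc17a6 was also at 6.67 in Th nuclei. The subiculum marker Fn1 was at 5.25 in Sub nuclei, with 4.82 in CA1, the next highest type, and 3.90 in Ivy, the lowest. The CA1 marker Mpped1 was at 4.90 in CA1, but also at 4.61 in Sub and 6.59 in Pvalb nuclei, and the Th nuclei held Tcf7l2 at 8.89 and Vip at 3.50. Among markers of glia and endothelium, Mbp ran from 1.30 to 3.79 and Cx3cr1 from 0.87 to 1.43 over the types, 10 others stayed under 1 in every type, and their part in the results was not tested. A mean level mixes the share of nuclei that hold the gene with its level in them, so detection stands beside some levels.

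**Figure D1:**
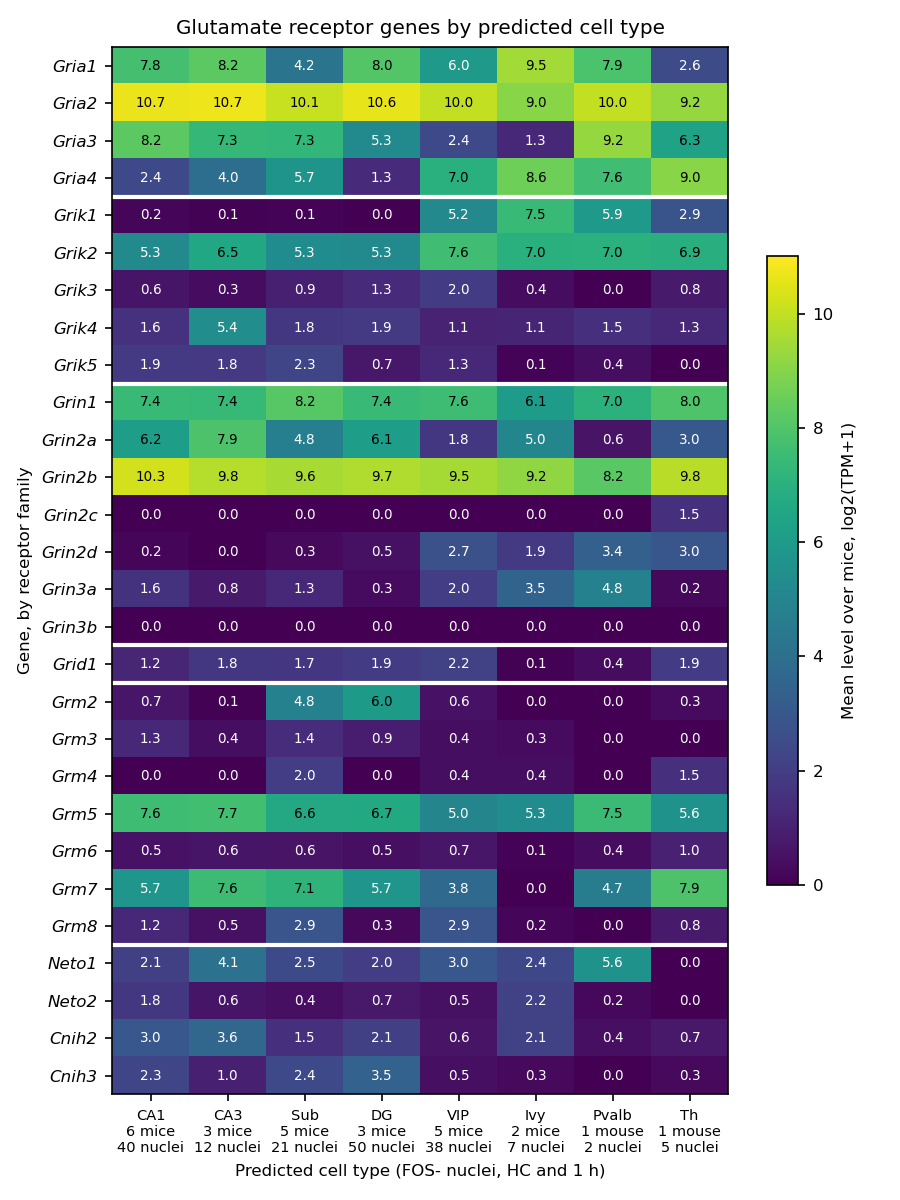
Mean level, log2(TPM+1), of the 28 genes in the FOS- nuclei of each predicted cell type of the first cohort, as a mean over mice with at least 2 nuclei, with the number of these mice and of their nuclei under each column. Gria2, Grin1 and Grin2b were above 6 in all 8 types, whereas Grik1 was above 5 only in the VIP, Ivy and Pvalb columns.

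Gria2, whose edited subunit makes the AMPA channel nearly impermeable to calcium, had the highest level of the 28 genes in CA1 (10.69 ± 0.54, n = 6 mice), CA3 (10.73 ± 0.47, n = 3), Sub (10.06 ± 0.55, n = 5), DG (10.59 ± 0.39, n = 3) and VIP nuclei (9.99 ± 0.49, n = 5). It was detected in every one of these nuclei, also after thinning. Gria1, the subunit best known for its insertion at potentiated synapses, was at 8.24 ± 0.60 in CA3, 8.05 ± 0.27 in DG, 7.76 ± 1.22 in CA1, 5.96 ± 1.87 in VIP and 4.23 ± 1.44 in Sub. Neighbours in that order did not differ beyond their SDs, whereas CA3, DG and CA1 each differed from Sub beyond them. Gria3 went from 8.21 ± 0.74 in CA1 over 7.31 ± 0.86 in CA3, 7.28 ± 0.60 in Sub and 5.28 ± 1.67 in DG to 2.41 ± 2.07 in VIP nuclei. Gria4, a fast-gating subunit, had another order, from 6.97 ± 0.72 in VIP over 5.69 ± 0.67 in Sub, 3.97 ± 1.83 in CA3 and 2.44 ± 1.31 in CA1 to 1.35 ± 0.13 in DG. For both genes the SDs of all neighbours in the order overlapped.

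In the smaller types, Gria4 was at 8.57 ± 1.70 in the 2 Ivy mice, 7.64 in the 1 Pvalb mouse and 9.03 in the 1 Th mouse. Gria3 was at 1.25 ± 0.77, 9.24 and 6.33 in the same mice, and Gria1 at 9.46 ± 0.80, 7.87 and 2.57. The highest of the 28 genes was thus Gria1 in Ivy, Gria2 (10.01) in Pvalb and Grin2b (9.82) in Th nuclei.

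As a share of the summed TPM of the 4 AMPA genes, Gria2 supplied 64.6% ± 8.96 in CA1, 73.1% ± 4.52 in CA3, 62.5% ± 9.29 in Sub, 74.0% ± 9.33 in DG and 67.3% ± 13.5 in VIP nuclei. The SDs of those shares overlapped. Gria3 held 19.0% ± 7.12 in CA1, 21.2% ± 6.51 in Sub, 11.6% ± 4.71 in CA3, 9.38% ± 5.84 in DG and 2.78% ± 2.53 in VIP nuclei. Gria4 held 15.8% ± 4.90 in VIP, 10.1% ± 1.84 in Sub, 3.08% ± 4.43 in CA1, 1.79% ± 1.00 in CA3 and 0.830% ± 0.400 in DG. In the 2 Ivy mice Gria2 supplied 36.8% ± 14.0, Gria1 37.3% ± 9.98 and Gria4 25.8% ± 4.05. In the 1 Th mouse Gria2 and Gria4 supplied 44.5% and 43.9%.

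**Figure D2:**
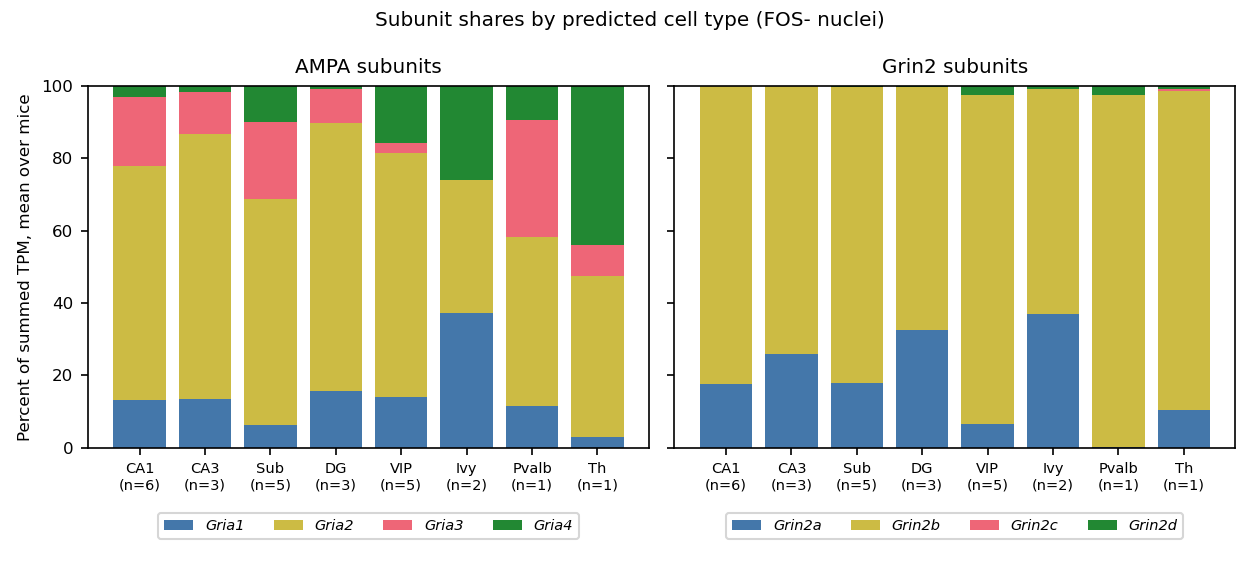
Share of each subunit gene in the summed TPM of the 4 AMPA genes (left) and the 4 Grin2 genes (right), in percent, as a mean over the n mice of each predicted type, in FOS- nuclei. Gria2 was the largest AMPA share in every type except Ivy, and Grin2b the largest Grin2 share in all 8.

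Among the NMDA receptor genes, Grin2b was at 10.26 ± 0.30 in CA1, 9.78 ± 0.53 in CA3, 9.70 ± 0.25 in DG, 9.56 ± 0.67 in Sub and 9.54 ± 0.27 in VIP nuclei, and Grin1 ran from 7.39 to 8.16 over these 5 types. Neighbours did not differ beyond their SDs for either gene, whereas Grin2b in CA1 differed beyond them from DG and VIP nuclei. Grin2a, a subunit that shortens NMDA currents, was at 7.95 ± 0.32 in CA3, 6.16 ± 1.5 in CA1, 6.12 ± 0.89 in DG, 4.76 ± 1.75 in Sub and 1.77 ± 2.35 in VIP nuclei. It was detected in 48 of 52 DG nuclei (92.3%, 75.0% after thinning) and 8 of 39 VIP nuclei (20.5%, 17.9% after thinning). Grin2a supplied 32.7% ± 4.85 of the Grin2 TPM in DG, 26.0% ± 7.46 in CA3, 17.9% ± 12.6 in Sub, 17.7% ± 10.4 in CA1 and 6.47% ± 9.74 in VIP nuclei. Grin2d, a subunit with slow kinetics known from interneurons, was at 2.71 ± 0.49 in VIP nuclei and ran from 0.00 to 0.51 in the other 4 of these types. Grin3a ran from 2.00 ± 1.53 in VIP to 0.33 ± 0.23 in DG, and neighbours in its order did not differ beyond their SDs.

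Grin2c and Grin3b had few counts anywhere. Grin2c, known from the thalamus and cerebellum, was at 1.53 in the 1 Th mouse, with counts in 3 of 6 Th nuclei, and it had counts in 0 of 40 CA1 and 0 of 52 DG nuclei, which allows shares of up to 7.50% and 5.77%. Over all kept nuclei Grin2c had counts in 7 of 783. Grin3b had counts in 15 of 783, none of them FOS- nuclei of the first cohort, and at most in 4 of 48 nuclei (8.33%) of a group, the FOS+ nuclei of A>C mice.

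Of the kainate receptor genes, Grik2 had the highest level in each of the 5 larger types (7.63 ± 0.96 in VIP, 6.55 ± 0.86 in CA3, 5.35 ± 2.14 in Sub, 5.26 ± 0.38 in DG, 5.26 ± 1.42 in CA1). Grik1 was at 5.17 ± 2.23 in VIP, 7.47 ± 0.61 in Ivy, 5.95 in the 1 Pvalb mouse and 2.88 in the 1 Th mouse. In the other types it was at 0.21 ± 0.37 in CA1, 0.09 ± 0.09 in Sub, 0.05 ± 0.09 in CA3 and 0.01 ± 0.02 in DG, and the step from VIP to CA1 exceeded the SDs. Grik1 supplied 31.9% ± 15.0 of the kainate TPM in VIP and 0.620% ± 1.15 in CA1 nuclei. Grik4, a high-affinity subunit known from CA3, was at 5.40 ± 1.35 in CA3 (32.6% ± 9.85 of the kainate TPM) and ran from 1.07 to 1.86 in the other 4 types, a step that exceeded the SDs. Grik3 (0.35 to 1.96), Grik5 (0.71 to 2.31) and the delta subunit gene Grid1 (1.19 to 2.18) had levels of that order in all 5 types.

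Among the metabotropic receptors, Grm5 had the highest level in CA1, CA3, DG and VIP and Grm7 in Sub nuclei. Grm5 was at 7.66 ± 0.18 in CA3, 7.60 ± 0.77 in CA1, 6.70 ± 0.54 in DG, 6.62 ± 1.28 in Sub and 5.02 ± 1.25 in VIP nuclei. Grm7, a presynaptic receptor of low affinity, was at 7.55 ± 1.04 in CA3, 7.14 ± 1.05 in Sub, 5.73 ± 1.52 in CA1, 5.72 ± 1.94 in DG and 3.78 ± 2.13 in VIP nuclei. Grm2, a presynaptic receptor known from the mossy fibers of DG neurons, was at 6.00 ± 0.48 in DG and 4.82 ± 1.27 in Sub, and at 0.67 ± 0.90 in CA1, 0.55 ± 0.41 in VIP and 0.06 ± 0.06 in CA3, so that the step below Sub exceeded the SDs. Grm4 was at 1.99 ± 0.77 in Sub and ran from 0.00 to 0.42 in the other 4 types. Grm8 was at 2.89 ± 2.14 in Sub and 2.88 ± 2.03 in VIP nuclei, with ranges over mice of 0.00 to 5.60 and 0.00 to 5.14. Grm3 (0.40 to 1.39) and Grm6 (0.46 to 0.66) covered these ranges over the 5 types, and the detection of Grm6 in DG nuclei went from 36.5% to 3.85% on thinning.

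Of the auxiliary genes, Cnih3 was at 3.46 ± 0.45 in DG, 2.42 ± 0.63 in Sub, 2.29 ± 1.72 in CA1, 0.97 ± 0.67 in CA3 and 0.46 ± 0.17 in VIP nuclei. Cnih2 ran from 3.63 ± 2.32 in CA3 to 0.59 ± 0.60 in VIP nuclei. Neto1 was at 4.09 ± 0.82 in CA3 and ran from 1.98 to 2.99 in the other 4 types, and at 5.63 in the 1 Pvalb mouse. Neto2 was at 1.79 ± 0.38 in CA1 and ran from 0.44 to 0.73 in the other 4, a step that exceeded the SDs.

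The cell types were compared on counts summed per mouse in FOS- nuclei, by edgeR with exposure as a covariate and Benjamini-Hochberg adjustment over 21424 genes. Of the 28 genes, 27 passed the filter on low counts, and Grin3b did not. The sums of DG came from mice that gave no sum of another type. Cell type and mouse thus cannot be told apart for DG, whereas the other types shared some mice. Most FOS- VIP nuclei lay on plates that gave no CA1 sum, and 1hr mouse 4 gave VIP and CA1 nuclei on different plates. Median total counts of FOS- nuclei in 1hr and HC mice were 344915 and 559838 for VIP, against 1266485 and 1042478 for CA1. The part of plate and depth in VIP against CA1 was not tested. All p-values measure the spread between these mice.

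VIP interneurons differed from CA1 pyramidal neurons in Grik1, which was higher, and Gria3, which was lower. Grik1 (chromosome 16, 87895900 to 88290265, minus strand, mm10) was at 8.22, 6.61, 4.66, 3.50 and 2.85 in the 5 VIP mice and ran from 0.00 to 0.94 in the 6 CA1 mice. The groups did not overlap, and the log2 fold change was 9.02 ± 1.35 (SE, edgeR adjusted p = 0.00172). Gria3 (chromosome X, 41400854 to 41678601, plus strand) was at 5.83, 2.77, 1.73, 1.06 and 0.67 in VIP and 9.29, 8.54, 8.32, 8.25, 7.85 and 7.05 in CA1 mice, again without overlap, with a log2 fold change of -3.26 ± 0.69 (edgeR adjusted p = 0.0404). The highest VIP value of each gene came from 1hr mouse 2, which had 2 VIP nuclei. Of the family as a whole, edgeR called 2 of 27 genes (0.345% of all genes tested), 11 had an unadjusted p under 0.05 (12.3%), DESeq2 called 7 (5.67%) and limma called 6 of 27 (1.31%).

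Several mice gave nuclei of both types. With the mouse as a block in place of exposure, edgeR called 0 of the genes, with adjusted p = 0.270 for Grik1 (log2 fold change 8.56) and 0.595 for Gria3 (-3.42). In HC nuclei alone the edgeR adjusted p was 0.419 for Grik1 and 0.716 for Gria3. The Gria3 call was also lost without any one of 1hr mice 4 and 10 and HC mice 3, 4, 5 and 8, with log2 fold changes of -4.02 to -2.88 over all mice left out in turn.

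Of the 23 genes with a level of 1 or more in either group, 6 did not overlap between mice, against 3.65% of all such genes. Beside Grik1 and Gria3 these were Gria4 (6.11 to 7.98 in VIP, 0.13 to 4.19 in CA1), Grin2d (2.00 to 3.33 and 0.00 to 1.06), Cnih2 (0.00 to 1.38 and 1.78 to 5.55) and Grin2b (9.12 to 9.86 and 9.92 to 10.77). Their edgeR adjusted p was 0.206 for Gria4 (log2 fold change 2.5 ± 0.80), 0.493 for Grin2d, 0.772 for Cnih2 and 0.107 for Grin2b (-0.71 ± 0.18). DESeq2 called Gria4 (adjusted p = 0.0155), Grin2b (0.00765), Grik3 (0.0187), Grm4 and Cnih3 beside Grik1 and Gria3. The limma calls beside Grik1 and Gria3 were Gria4 (adjusted p = 7.79e-04), Grin2d (8.77e-04), Grin2a (0.013) and Grm5. The median difference in level was -0.61 for the 23 genes and -0.33 for all genes of that level.

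VIP nuclei differed from DG nuclei in Grik1, which was higher in VIP. It was detected in 26 of 39 VIP and 3 of 52 DG nuclei (66.7% and 5.77%, and 59.0% and 0% after thinning). Its log2 fold change was 13.14 ± 2.21 (edgeR adjusted p = 0.00699), a size set against few counts in DG. The call was lost without 1hr mouse 3, HC mouse 6 or HC mouse 7 (edgeR adjusted p of 0.0887, 0.0645 and 0.0510), and in HC nuclei alone (0.414). Among the genes tested, edgeR called 1 of 27 genes (0.303% of all genes tested), 9 had an unadjusted p under 0.05 (11.2%), DESeq2 called 6 (5.02%) and limma called 5 of 27 (1.29%). A level of 1 or more in either group was reached by 22 genes, of which 7 did not overlap between mice, against 14% of all such genes. The largest of these differences beside Grik1 were Gria4, Grik2 and Grin2d, higher in VIP, and Grm2 and Cnih3, lower in VIP. Gria4 ran from 6.11 to 7.98 in VIP and 1.21 to 1.45 in DG mice (edgeR adjusted p = 0.166), Grik2 from 6.52 to 8.85 and 4.85 to 5.61 (adjusted p = 0.595) and Grin2d from 2.00 to 3.33 and 0.11 to 1.08 (adjusted p = 0.764). Grm2 ran from 0.00 to 0.96 in VIP and 5.54 to 6.49 in DG mice (log2 fold change -5.57 ± 1.93, edgeR adjusted p = 0.282, limma adjusted p = 1.22e-05), and Cnih3 from 0.22 to 0.71 and 2.94 to 3.75 (-6.87 ± 1.62, edgeR adjusted p = 0.0853). The median difference in level was -0.01 for the 22 genes and 0.11 for all genes of that level.

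Between DG and CA1 the Grm2 levels were the farthest apart. Grm2 (chromosome 9, 106643095 to 106656082, minus strand) was at 6.49, 5.98 and 5.54 in the DG mice and 2.09, 1.47, 0.34, 0.09, 0.00 and 0.00 in the CA1 mice, and the groups did not overlap. The log2 fold change was 4.86 ± 1.73 (edgeR p = 0.0111, adjusted p = 0.474), and limma on the levels gave an adjusted p of 1.66e-05. Over the whole list, edgeR called 0 of 27 genes (0.103% of all genes tested), 3 had an unadjusted p under 0.05 (8.14%), DESeq2 called 0 (2.88%) and limma called 1 of 27 (0.602%). Mice did not overlap for 5 of the 22 genes with a level of 1 or more in either group, against 8.55% of all such genes. Beside Grm2, Grid1 (1.77 to 2.09 in DG and 0.15 to 1.68 in CA1) had the higher levels in DG, and Gria3 (3.36 to 6.38 and 7.05 to 9.29), Grik5 (0.00 to 1.11 and 1.31 to 2.82) and Neto2 (0.16 to 1.20 and 1.36 to 2.41) the lower. For Neto2 the summed counts did not follow the levels (log2 fold change 0.13 ± 1.58, and -0.54 to 0.62 with each mouse left out). The median difference in level was -0.10 for the 22 genes and -0.41 for all genes of that level.

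In the subiculum, Grm2 was at 5.92, 5.74, 5.34, 4.20 and 2.89 in the 5 mice, all above the CA1 mice (log2 fold change 3.86 ± 1.65, edgeR adjusted p = 0.462, limma adjusted p = 4.76e-04). Grm4, another presynaptic receptor, was at 3.02, 2.40, 1.90, 1.67 and 0.96 in Sub and ran from 0.00 to 0.12 in CA1 mice (7.71 ± 1.80, edgeR adjusted p = 0.392, limma adjusted p = 5.10e-04). Gria4 (5.09 to 6.74 in Sub and 0.13 to 4.19 in CA1) had the higher levels in Sub, and Gria1 (2.68 to 5.64 and 5.66 to 8.82) and Neto2 (0.16 to 0.93 and 1.36 to 2.41) the lower, with edgeR adjusted p of 0.436, 0.395 and 0.397. Of the family, edgeR called 0 of 27 genes (0.00934% of all genes tested), 7 had an unadjusted p under 0.05 (10%), DESeq2 called 3 (3.72%) and limma called 2 of 27 (0.131%). The DESeq2 calls were Grm4, higher in Sub, and Grin2b and Neto2, lower in Sub. Of the 22 genes with a level of 1 or more in either group, 5 did not overlap between mice, against 0.961% of all such genes.

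In CA3, Grik4 (chromosome 9, 42518135 to 42944493, minus strand) was at 6.94, 4.82 and 4.45 in the 3 mice and 3.39, 1.96, 1.44, 1.08, 0.86 and 0.70 in the CA1 mice, without overlap (log2 fold change 3.04 ± 1.53, edgeR adjusted p = 0.745, limma adjusted p = 0.00939). After thinning it was detected in 100% of 13 CA3 and 45.0% of 40 CA1 nuclei. Among the genes tested, edgeR called 0 of 27 genes (0% of all genes tested), 4 had an unadjusted p under 0.05 (6.71%), DESeq2 called 3 (2.68%) and limma called 1 of 27 (0.723%). The DESeq2 calls were Grin2b, Grin2d and Grm2, all lower in CA3. A level of 1 or more in either group was reached by 20 genes, of which 2 did not overlap between mice, against 4.66% of all such genes, and the other gene was Neto2 (0.11 to 0.88 in CA3 and 1.36 to 2.41 in CA1).

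**Figure D3:**
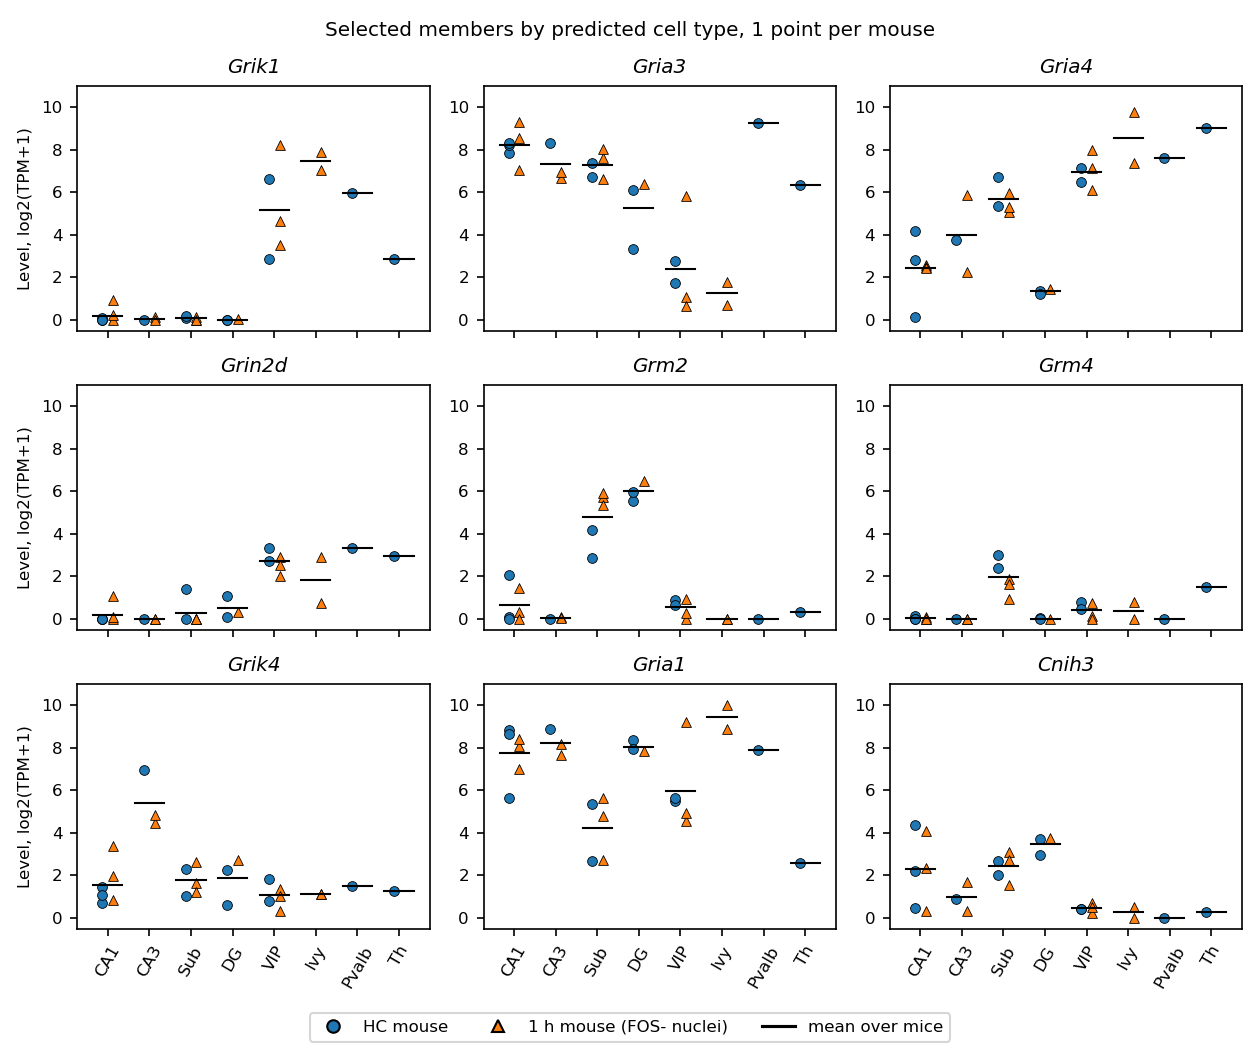
Level, log2(TPM+1), of 9 genes by predicted cell type in FOS- nuclei, with 1 point per mouse (circles HC, triangles 1hr) and a line at the mean over mice. Grik1 was above 2 in the VIP, Ivy, Pvalb and Th mice and under 1 in the others, and Grm2 was highest in DG and Sub.

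Of 42 partner genes of these receptors (scaffolds, further auxiliary subunits, transporters and pentraxins), edgeR called 2 in VIP against CA1 (0.345% of all genes tested), both lower in VIP. These were Slc17a7, the vesicular glutamate transporter (level 0.76 and 7.25, log2 fold change -6.75 ± 1.14, adjusted p = 0.00602), and the scaffold gene Dlgap1 (6.57 and 8.74, -1.37 ± 0.30, adjusted p = 0.0495). With the mouse as a block the adjusted p was 0.0396 for Slc17a7 and 0.786 for Dlgap1. With each of 8 mice left out in turn it ran from 0.00540 to 0.0467 for Slc17a7 and from 0.0121 to 0.231 for Dlgap1, whose call held in 1 of the 8 fits, that without 1hr mouse 2. In VIP against DG it called 3 (0.303% of all genes tested), all lower in VIP. They were Slc17a7 (0.76 and 7.33, edgeR adjusted p = 0.00742), the kinase subunit gene Camk2b (4.98 and 8.26, edgeR adjusted p = 0.0129) and Nsf, a gene of vesicle fusion (6.72 and 9.56, adjusted p = 0.0348). With each of 8 mice left out in turn the adjusted p ran from 0.00610 to 0.0434 for Slc17a7, from 0.0150 to 0.0744 for Camk2b and from 0.00273 to 0.161 for Nsf. The Camk2b call was lost without 1hr mouse 3 or HC mouse 4, 5 or 7 and the Nsf call without any of these, 1hr mouse 2 or HC mouse 6. In HC nuclei alone edgeR called none of these partner genes in either comparison, with adjusted p of Slc17a7 of 0.694 against CA1 and 0.607 against DG. In DG, CA3 and Sub against CA1 edgeR called 0 of the 42, with 7, 4 and 4 at an unadjusted p under 0.05, against 8.14%, 6.71% and 10% of all genes tested.

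FOS+ and FOS- DG nuclei at 1 h came from 1 mouse, 1hr mouse 3 (26 and 27 nuclei), so that the test rests on the spread within the other DG groups. The 5 largest differences in level were those of Grm2 (3.29 in FOS+ and 6.49 in FOS- nuclei), Grik2 (3.61 and 5.32), Grm7 (6.65 and 5.17), Neto1 (2.92 and 1.53) and Cnih3 (2.54 and 3.75). Grin2a was at 8.12 and 7.10 and Grin2b at 10.35 and 9.97. Over the whole list, edgeR called 0 of 28 genes (0.0451% of all genes tested), 0 had an unadjusted p under 0.05 (3.02%), DESeq2 called 1 (4.3%) and limma called 0 of 24 (1.07%). The DESeq2 call was Grm8, with counts in 0 of 26 FOS+ nuclei, which allows up to 11.5%, and 2 of 27 FOS- nuclei. Against the 2 HC mice, edgeR called 0 of 28 genes (0.27% of all genes tested), 1 had an unadjusted p under 0.05 (5.9%), DESeq2 called 1 (7.28%) and limma called 0 of 24 (4.1%), and the gene was again Grm8. The HC mice were at 5.88 and 5.36 for Grin2a, 5.98 and 5.54 for Grm2, 5.61 and 4.85 for Grik2, 6.10 and 3.36 for Gria3 and 1.03 and 0.00 for Grik5, and the FOS+ nuclei at 6.19 for Gria3 and 1.88 for Grik5. The 1 FOS+ mouse did not overlap the HC mice for 12 of the 18 genes with a level of 1 or more in either group, against 72.9% of all such genes. In the same comparison edgeR called 2 of the 42 partner genes (0.27% of all genes tested), both with the higher level in the FOS+ mouse. They were Homer1, a postsynaptic scaffold gene (8.16 and 1.49, log2 fold change 6.94 ± 1.35, adjusted p = 0.0238), and the neuronal pentraxin gene Nptx2 (4.71 and 0.54, 5.61 ± 1.07, adjusted p = 0.0226). The spread of the lone FOS+ mouse is assumed to be that of the other groups, and no fit can leave it out. Without HC mouse 6 the adjusted p was 0.117 for Homer1 and 0.0838 for Nptx2, and without HC mouse 7 it was 0.371 and 0.364, so that both calls rest on both HC mice.

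After a second exposure to the same environment (A>A), Grm2 levels were lower in FOS+ than in FOS- nuclei. The Grm2 level was at 2.60, 2.42, 2.40, 2.18, 2.11 and 1.61 in the 6 FOS+ mice and 6.00, 5.69, 4.26, 4.16, 3.94 and 3.72 in the 6 FOS- mice, with means of 2.22 ± 0.35 and 4.63 ± 0.96. The groups did not overlap. The log2 fold change was -1.34 ± 0.36 (edgeR p = 0.00120, adjusted p = 0.214, DESeq2 adjusted p = 0.00891, limma adjusted p = 0.0124). Some of these mice gave nuclei of both kinds, and the p-values and calls in this paragraph take no account of that. FOS+ mice 15 and 16 and FOS- mice 19 and 20 gave nuclei of 1 kind only and lay on different plates. Plate and FOS state thus cannot be told apart for mice 15, 16, 19 and 20. Grm2 was detected in 65 of 130 FOS+ nuclei (50.0%, 95% Wilson interval 41.5 to 58.5) and 105 of 129 FOS- nuclei (81.4%, 73.8 to 87.2), or 35.4% and 63.6% after thinning. Those intervals cover counting error over nuclei only, not the spread between mice. Median total counts were 767842.5 and 807527.5 in FOS+ mice 15 and 16 and at least 1703833 in the other A>A sums. Of the family, edgeR called 0 of 28 genes (0.041% of all genes tested), 2 had an unadjusted p under 0.05 (15.4%), DESeq2 called 1 (3.6%) and limma called 1 of 24 (1.97%). The DESeq2 and the limma call were Grm2.

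Mice 24 to 27 gave A>A nuclei of both kinds. Within each of these 4 mice Grm2 was lower in FOS+ nuclei, by a mean difference in level of -2.30 (-3.27 to -1.32 over the mice). With the mouse as a block the edgeR log2 fold change of Grm2 was -1.02 (adjusted p = 0.682). Also in 4 of 4 mice, Grm7 (-1.49, -3.52 to -0.33), Grm5 (-0.87, -1.35 to -0.45) and Neto1 (-0.54, -1.33 to -0.05) had the lower level in FOS+ nuclei, and Grin2a (0.94, 0.26 to 1.80), Grin2b (0.38, 0.12 to 0.52) and Neto2 (0.35, 0.07 to 0.59) the higher. Without Neto2, whose level was under 1, these were 6 of the 18 genes with a level of 1 or more in FOS+ or FOS- nuclei, against 26.6% of all such genes with a difference of the same sign in 4 of 4 mice. Over all A>A mice edgeR called none of Grm7, Grm5, Neto1, Grin2a, Grin2b and Neto2, with adjusted p of 0.849, 0.383, 0.997, 0.892, 1.00 and 0.648.

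Mice did not overlap for 2 of the 18 genes with a level of 1 or more in either group, against 3.46% of all such genes. Beside Grm2 this was Grin2b, at 9.67 to 10.38 in FOS+ and 9.17 to 9.63 in FOS- mice, but its summed counts gave a log2 fold change of 0.01 ± 0.15, whose sign turned with single mice left out (-0.07 to 0.10). Grin1 (6.39 to 8.64 and 4.59 to 7.16) and Grin2a (7.10 to 8.80 and 5.76 to 7.60) overlapped. Grin2a supplied 36.6% ± 6.46 of the Grin2 TPM in FOS+ and 35.3% ± 4.56 in FOS- mice, which differed by less than the spread. The median difference in level was 0.28 for the 18 genes and 0.05 for all genes of that level.

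After a different second environment (A>C), FOS+ nuclei came from mice 13 and 14 and FOS- nuclei from mice 11 and 12 on another plate, so that plate and FOS state cannot be told apart. Grm2 was at 3.15 and 2.79 in FOS+ and 6.79 and 4.08 in FOS- mice (log2 fold change -1.51 ± 0.62, edgeR p = 0.0239, adjusted p = 0.899). After Grm2 the largest differences in level were those of Grm8 (0.94 and 0.44 in FOS+, 3.81 and 2.00 in FOS-), Gria4 (1.57 and 0.60, 3.96 and 2.00), Cnih2 (3.90 and 2.85, 1.95 and 1.07) and Grm7 (8.09 and 6.72, 9.04 and 8.24). Among the genes tested, edgeR called 0 of 28 genes (0% of all genes tested), 1 had an unadjusted p under 0.05 (4.46%), DESeq2 called 0 (4.58%) and limma called 0 of 24 (0.593%). Of the 19 genes with a level of 1 or more in either group, 13 did not overlap between mice, against 55.1% of all such genes. The FOS effect was tested for a difference between A>A and A>C, and edgeR called 0 of 28 genes, with a smallest unadjusted p of 0.0859 (Gria4).

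**Figure D4:**
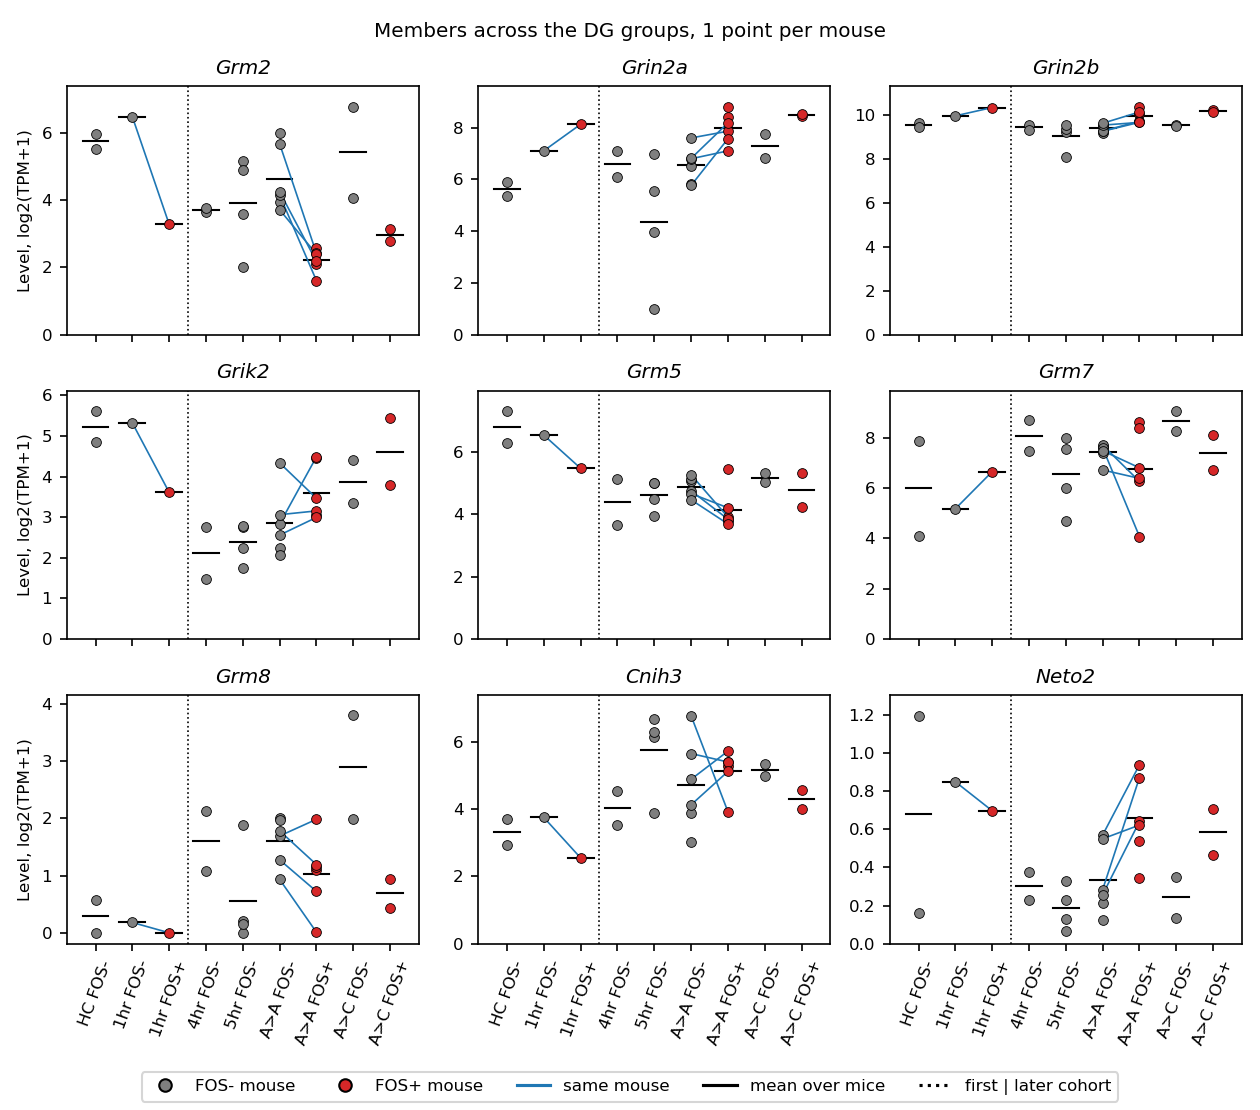
Level, log2(TPM+1), of 9 genes in each DG group, with 1 point per mouse (grey FOS-, red FOS+), black lines at the mean over mice, blue lines joining nuclei of the same mouse, and a dotted line between the cohorts. Grm2 was lower in FOS+ than in FOS- nuclei of 1hr mouse 3 and of A>A mice 24 to 27.

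ARC+ DG nuclei 4 h after a single exposure (2 mice) were compared with HC (2 mice). Grik2 was at 2.77 and 1.47 at 4 h and 5.61 and 4.85 in HC mice (limma adjusted p = 0.0173, edgeR log2 fold change -1.59 ± 0.99, adjusted p = 0.864). Grm5 was at 5.13 and 3.66 at 4 h and 7.30 and 6.27 in HC mice (limma adjusted p = 0.0326, edgeR -0.52 ± 0.51, adjusted p = 0.937). Over the whole list, edgeR called 0 of 28 genes (0.246% of all genes tested), 1 had an unadjusted p under 0.05 (5.58%), DESeq2 called 0 (4.14%) and limma called 2 of 24 (4.48%). A level of 1 or more in either group was reached by 19 genes, of which 9 did not overlap between mice, against 47.3% of all such genes. After Grik2 and Grm5 the largest of these were Grm2 (3.77 and 3.66 at 4 h and 5.98 and 5.54 in HC), Grm8 (2.14 and 1.09 against 0.58 and 0.00) and Grik5 (1.71 and 1.70 against 1.03 and 0.00). Grm7 was at 8.69 and 7.45 at 4 h and 7.87 and 4.11 in HC mice, which overlapped (1.34 ± 0.49, edgeR p = 0.0128, adjusted p = 0.659).

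At 5 h (4 mice), Cnih3 (chromosome 1, 181352628 to 181460641, plus strand) was at 6.66, 6.29, 6.14 and 3.89, against 3.70 and 2.94 in the HC mice. The groups did not overlap, with a log2 fold change of 2.40 ± 0.59 (edgeR p = 6.16e-04, adjusted p = 0.107, DESeq2 adjusted p = 0.00164, limma adjusted p = 0.0507). Cnih3 was detected in 54 of 59 nuclei at 5 h and 16 of 25 in HC (91.5% and 64.0%, and 74.6% and 40.0% after thinning). Of the family, edgeR called 0 of 28 genes (0.262% of all genes tested), 2 had an unadjusted p under 0.05 (10.3%), DESeq2 called 3 (8.14%) and limma called 4 of 24 (13%). Mice did not overlap for 5 of the 18 genes with a level of 1 or more in either group, against 29% of all such genes. Beside Cnih3 these were Grik2 (1.76 to 2.79 at 5 h and 4.85 to 5.61 in HC), Grm5 (3.96 to 5.00 and 6.27 to 7.30), Grm2 (2.02 to 5.17 and 5.54 to 5.98) and Gria2 (9.60 to 9.99 and 10.48 to 11.02), each at lower levels at 5 h. For Grm5 the levels (limma adjusted p = 0.0118) and the summed counts (log2 fold change -0.08 ± 0.44) gave unequal answers, and with the later plate alone the count-based fold change was 0.51 for Grm5 and 0.33 for Grik2. The median difference in level was -0.67 for the 18 genes and -0.49 for all genes of that level.

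Among the 5 h mice, 8 and 9 had median total counts of 381169.5 and 350943, and mice 22 and 23, on another plate, 1776118 and 1555742. Mice 8 and 9 gave 22 and 21 nuclei with medians of 5552 and 5437 genes over a level of 1. Mice 22 and 23 gave 10 and 6 nuclei with medians of 4249 and 4208.5, near the filter of 4000. Of 96 nuclei at 5 h, 59 were kept. Grm2 was at 5.17 and 4.89 on the first and 2.02 and 3.61 on the other plate, and Grin2a at 6.98 and 5.53 and at 1.00 and 3.94. For Cnih3 the log2 fold change against HC was 2.25 with the earlier and 2.55 with the later plate alone (edgeR adjusted p of 0.251 and 0.0531). The part of the plate in the other values was not tested.

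Of the 42 partner genes, edgeR called 3 at 4 h (0.246% of all genes tested) and 3 at 5 h (0.262%) against HC, all with the higher level after exposure, and both comparisons share the HC mice. At both times they were Nptx2 (level 5.10 at 4 h, 4.38 at 5 h and 0.54 in HC, edgeR adjusted p = 0.0145 and 0.0129), its relative Nptxr (6.46, 6.43 and 3.69, adjusted p = 0.0460 and 0.0432) and the scaffold gene Shank1 (6.81, 6.47 and 3.87, adjusted p = 0.0352 and 0.0158). Without HC mouse 7 none of these calls held, with adjusted p of 0.346 and 0.248 for Nptx2, 0.433 and 0.340 for Nptxr and 0.525 and 0.249 for Shank1 at 4 h and 5 h. Without HC mouse 6 it was 0.0686 and 0.0502 for Nptx2, 0.158 and 0.135 for Nptxr and 0.00721 and 0.00481 for Shank1. At 4 h all 3 calls were also lost without 4hr mouse 21, and those of Nptxr and Shank1 without 4hr mouse 17, while at 5 h the Nptxr call was also lost without 5hr mouse 8 or 5hr mouse 9. Nptxr was not called at either time with DESeq2 size factors, no low-count filter or no Arc filter. The same held with all deposited nuclei and with mice split by plate date (edgeR adjusted p of 0.0514 to 0.160 over these settings). DESeq2 called Nptxr at both times (adjusted p = 0.00185 and 5.21e-05), and limma at 5 h (0.02225) but not at 4 h (0.0769). Between FOS+ and FOS- nuclei in A>A and A>C edgeR called 0 of the 42, with 9 and 2 at an unadjusted p under 0.05, against 15.4% and 4.46% of all genes tested.

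In CA1, FOS+ and FOS- nuclei at 1 h came from the same 3 mice, and with the mouse as a block edgeR called 0 of the genes. Neto2 was at 1.10, 0.82 and 1.22 in FOS+ and 2.04, 2.41 and 1.64 in FOS- nuclei of 1hr mice 10, 2 and 4, without overlap (log2 fold change -2.66 ± 0.98, edgeR p = 0.0245, adjusted p = 1.000, DESeq2 adjusted p = 0.00235). Grm5 was at 7.04, 6.91 and 5.00 in FOS+ and 8.09, 7.86 and 7.89 in FOS- nuclei (-0.77 ± 0.45, edgeR adjusted p = 1.000). Among the genes tested, edgeR called 0 of 24 genes (0% of all genes tested), 2 had an unadjusted p under 0.05 (4.34%), DESeq2 called 1 (1.52%) and limma called 0 of 24 (0%). Of the 19 genes with a level of 1 or more in either group, 2 did not overlap between mice, against 12.1% of all such genes, and they were Grm5 and Neto2. The FOS effect was tested for a difference between DG and CA1, and edgeR called 0 of 26 genes, with a smallest unadjusted p of 0.135 (Grin2d). Of the partner genes edgeR called 0 of 38, with 4 at an unadjusted p under 0.05 (4.34% of all genes tested).

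In VIP interneurons, FOS+ nuclei of 2 mice (1hr mice 4 and 5) were compared with FOS- nuclei of 3 (1hr mice 2, 4 and 5). Mice 4 and 5 thus gave nuclei of both kinds, and the p-values below take no account of that. Cnih3 was at 1.72 and 1.57 in FOS+ and 0.71, 0.51 and 0.22 in FOS- mice (log2 fold change 5.50 ± 1.36, edgeR p = 0.00539, adjusted p = 0.816, DESeq2 adjusted p = 3.33e-05). It was detected in 14 of 27 FOS+ and 4 of 17 FOS- nuclei (51.9% and 23.5%, and 25.9% and 0% after thinning), with median total counts of 599311 and 344915. Over the whole list, edgeR called 0 of 26 genes (0% of all genes tested), 1 had an unadjusted p under 0.05 (5.67%), DESeq2 called 1 (2.91%) and limma called 0 of 26 (0%). A level of 1 or more in either group was reached by 21 genes, of which 2 did not overlap between mice, against 19.8% of all such genes. They were Cnih3 and Grin1 (6.57 to 7.03 in FOS+ and 7.41 to 9.15 in FOS- mice, edgeR adjusted p = 0.885). Of the partner genes edgeR called 0 of 39, with 1 at an unadjusted p under 0.05 (5.67% of all genes tested).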

How the data were processed

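Single nuclei of mouse hippocampus were sequenced with SmartSeq2, 1 nucleus per library, so that no doublet caller was run. Per the labels and the study's methods, the authors trimmed reads with Solexa-QA++ and used RSEM with Bowtie on mm10 with Ensembl genes, versions not given in the sources used here. The deposited count tables held expected counts (RSEM), all of them whole numbers, and the deposited log2 tables held log2(TPM+1). Kept nuclei had at least 100000 aligned reads and 4000 genes over a log2(TPM+1) of 1, and FOS- nuclei of HC and 1hr mice also had Arc at or below 2.5 (35 left out). Nuclei are not replicates, so levels were averaged and counts summed per mouse (exposure and mouse number), with at least 2 nuclei. Gene coordinates are those of GENCODE vM21 on mm10. Sums were tested with edgeR 4.0.16 (TMM, filterByExpr, quasi-likelihood) in R 4.3.3, Benjamini-Hochberg over all genes tested, threshold 0.05. All DG groups shared 1 fit, and the 8 cell types another. DESeq2 1.42.0 and limma 3.58.1 on mean log2(TPM+1) were alternatives, beside DESeq2 size factors, no low-count filter, the mouse as a block, single mice left out, HC alone, mouse by number and plate date, no Arc filter, all deposited nuclei, the median over nuclei and thinned counts. The 3 alternatives on mice and plates were added after seeing the data. Scripts were tested on simulated data. Wilson intervals and floors (3 counts) cover counting error only, and p-values measure the spread between these mice.

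Mice that gave nuclei of both kinds pair the sums. In A>A, deviations from the group means correlated at 0.254 to 0.383 within mice 24 to 27, in CA1 at 0.100 to 0.179 within the 3 mice, and in VIP at 0.0200 and 0.0780 within the 2 mice. The highest correlation with another mouse was 0.126, 0.341, 0.307 and 0.378 for A>A mice 24 to 27. It ran from -0.071 to -0.022 for the CA1 mice and was 0.049 and -0.02 for VIP mice 4 and 5. For A>A mouse 25 and VIP mouse 4 another mouse thus correlated more highly than the same mouse.

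The 28 genes, the 42 partner genes and the markers were chosen with earlier results of these data known, and 1 marker is not reported here. Named for each comparison were genes past the adjusted threshold and up to 5 others whose mice did not overlap, by largest difference in level, and any further gene named was chosen after its values were seen. Reads of 50 bases from related subunit genes may have been split between them.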

Additional observations from a re-analysis of the deposited data

Results flagged for a closer look

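In 9 of 81 tests of groups of 4 to 10 mice, the highest or lowest mouse lay apart from the others by more than the 95% critical value of Dixon's test, which chance gives in about 1 in 20 groups. A value was flagged only where the highest mouse was at a level of 1 or more, whereas the 81 tests also held groups below that level. The share of 9 in 81 therefore cannot be set against 1 in 20. Among A>A FOS+ mice these were Cnih3 in A>A mouse 24 (3.92, against 5.11 to 5.71 in the others), Gria2 in A>A mouse 26 (9.30, against 9.83 to 10.07 in the others) and Grm5 in A>A mouse 15 (5.46, against 3.69 to 4.21 in the others). Among A>A FOS- mice they were Gria4 in A>A mouse 24 (2.08, against 1.12 to 1.25 in the others), Grin1 in A>A mouse 19 (4.59, against 6.34 to 7.16 in the others) and Grm7 in A>A mouse 27 (6.71, against 7.37 to 7.70 in the others). Among 5 h mice they were Gria2 in 5hr mouse 22 (9.60, against 9.95 to 9.99 in the others), Grik5 in 5hr mouse 22 (0.27, against 1.86 to 1.93 in the others) and Grm8 in 5hr mouse 8 (1.89, against 0.00 to 0.21 in the others).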

How the results depend on the processing

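Of the counts of genes that were called, reached a level or were detected, 142 alternatives kept the count within 1.5 times and 34 moved it. A count of 0 that stayed at 0 was scored as kept, and edgeR called 0 of the genes in most comparisons. The tally is therefore no measure of stable calls. DESeq2 called 7 genes in VIP against CA1, 6 in VIP against DG, 3 in CA3 and 3 in Sub against CA1, 3 at 5 h against HC, and 1 each in DG FOS+ against FOS- at 1 h, DG FOS+ against HC, A>A, CA1 FOS+ and VIP FOS+. On mean levels limma called 6 in VIP against CA1, 5 in VIP against DG, 2 in Sub, 1 in CA3 and 1 in DG against CA1, 2 at 4 h, 4 at 5 h and 1 in A>A. In VIP against CA1, edgeR called 1 with DESeq2 size factors (Gria3 at an adjusted p of 0.0546), 0 with the mouse as a replicate block and 0 in HC nuclei alone. In VIP against DG it called 0 in HC nuclei alone, 2 with mice split by plate date (Cnih3 added, adjusted p = 0.0401) and 2 without the Arc filter (Gria4 added, adjusted p = 0.0296). With single mice left out it called 1 to 2 in VIP against CA1, 0 to 1 in VIP against DG and 0 in the other comparisons. The number of genes detected in at least 50% of CA1 nuclei went from 16 to 10 on thinning. For named genes, 584 values kept direction and call, 28 gained a call, 16 lost one and 14 reversed. The cause of these shifts was not tested.

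Reversed were Neto2 in DG against CA1 (-1.05 in limma, and -0.54 to 0.62 with single mice left out, below 0 without 1hr mouse 3 and HC mice 3, 7 and 8), Grik2 at 5 h with the later plate alone (0.33), Grm5 at 5 h with the later plate alone (0.51) and without 5hr mice 8 and 9 or HC mouse 7 in turn (-0.47 to 0.16), and Grin2b in A>A with mice split by plate date (-0.10) and without A>A mice 15, 24 or 27 (-0.07 to 0.10).

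The mouse as a replicate block ended the calls of Grik1 (log2 fold change 8.56) and Gria3 (-3.42) in VIP against CA1 and changed no other count of calls over the 28 genes. DG FOS+ at 1 h came from 1 mouse, so its comparisons could not be run without that mouse. With 1 to 6 mice a group, 2 to 42 nuclei a sum, shallow libraries in the earlier and few nuclei in the later 5 h plate, the precision was limited, most for genes of low level.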

Other observations

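Grm3, a metabotropic receptor also known from astrocytes, was detected in 9 of 19 HC, 0 of 21 FOS- and 9 of 33 FOS+ CA1 nuclei, shares that were not tested against each other. In the few Pvalb nuclei, Grin2a supplied 0.170% of the Grin2 TPM in 1 FOS- mouse of 2 nuclei and 23.1% ± 1.67 in the FOS+ mice.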
